A study of Homo sapiens with 9 samples.

Results

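QKI‐5 peaks that crossed an exon–intron boundary were taken from the peak list of a HITS‐CLIP experiment on QKI‐5, the nuclear isoform of the RNA‐binding protein Quaking. A peak was a member when it held, with at least 5 nt on each side, a 5′ or 3′ splice site of a protein‐coding transcript of the GENCODE basic set on its own strand. Of the 24037 listed peaks, 386 met this rule (1.61%). A 5′ splice site, where an exon gives way to the intron downstream, lay in 231 of them, and a 3′ splice site, where the upstream intron ends and the exon begins, lay in 181. Both counts include 26 peaks that held a site of each kind. The cells were mesHMLE, a mesenchymal derivative of the human mammary epithelial line HMLE made by prolonged TGF‐β1 treatment and kept without further TGF‐β1. The labels give a UV dose of 600 mJ/cm2 for all libraries, and for the induction of EMT 2.5 ng/ml of TGF‐β1 over at least 14 days. An antibody specific to QKI‐5 gave 7 immunoprecipitation libraries, 3 of them cut from the gel at the size of the QKI monomer and 4 at the size of the dimer. SuperScript IV was the reverse transcriptase of 1 dimer library, and AffinityScript that of the other libraries. No antibody was used for the 2 size‐matched input libraries. All were labelled as technical replicates of this cell line and were pooled before peaks were called, so the list carries no spread between replicates and the depth per library is unknown. All comparisons below are between peaks or splice sites of that single list.

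Quaking proteins belong to the STAR family and bind single‐stranded RNA that carries ACUAAC, written ACTAAC in genome letters. In the nucleus QKI‐5 acts on splicing, and a splicing factor's site relative to an exon is commonly linked to whether the exon is included or skipped. The 5′ splice site is recognised by U1 snRNP, while the 3′ splice site is read through its polypyrimidine tract and AG by U2AF and through the branch point upstream, whose consensus resembles the Quaking motif. Spliced exons are joined in the mature mRNA, so the intron side of a boundary is normally read in RNA that has not been spliced there.

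The sequences around the boundaries of the tallest members and of named members with ACTAAC show what the peaks covered. They are printed 5′ to 3′ on the strand of the gene from hg19. Exon bases are in capitals and intron bases in lower case, for the transcript to which the site was assigned. Each runs from the boundary to the motifs with a margin on either side, or, where the peak held no motif, spans the bases next to the boundary. These 5′ splice sites lay under tall peaks.
ARGLU1 (chr13:107211740-107211819, minus strand): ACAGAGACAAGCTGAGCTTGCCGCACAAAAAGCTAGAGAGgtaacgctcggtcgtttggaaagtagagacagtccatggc
PFKP (chr10:3162228-3162276, plus strand): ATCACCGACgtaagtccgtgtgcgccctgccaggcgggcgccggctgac
SEC16A (chr9:139339388-139339518, minus strand): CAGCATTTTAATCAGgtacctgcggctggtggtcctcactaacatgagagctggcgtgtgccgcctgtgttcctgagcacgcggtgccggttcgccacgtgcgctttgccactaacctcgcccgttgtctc
DOCK6 (chr19:11342763-11342875, minus strand): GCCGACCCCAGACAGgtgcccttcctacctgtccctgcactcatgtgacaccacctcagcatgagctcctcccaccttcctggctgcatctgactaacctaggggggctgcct

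The 3′ splice sites below came from tall peaks with ACTAAC and from named genes with the motif.
AGRN (chr1:982560-982721, plus strand): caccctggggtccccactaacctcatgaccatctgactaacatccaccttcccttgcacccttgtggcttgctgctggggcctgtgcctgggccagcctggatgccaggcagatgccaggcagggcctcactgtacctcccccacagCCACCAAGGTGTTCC
UBA1 (chrX:47058123-47058212, plus strand): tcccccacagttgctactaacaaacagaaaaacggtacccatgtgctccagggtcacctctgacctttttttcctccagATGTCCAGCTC
CYFIP1 (chr15:22955978-22956053, plus strand): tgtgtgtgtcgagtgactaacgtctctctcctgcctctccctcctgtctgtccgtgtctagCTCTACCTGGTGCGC
CLIP1 (chr12:122832012-122832049, minus strand): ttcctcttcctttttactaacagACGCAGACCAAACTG
TPM1 (chr15:63353374-63353411, plus strand): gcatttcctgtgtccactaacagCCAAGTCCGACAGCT
CTNND1 (chr11:57583347-57583401, plus strand): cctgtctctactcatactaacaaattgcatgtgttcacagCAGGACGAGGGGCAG
CD47 (chr3:107768484-107768547, minus strand): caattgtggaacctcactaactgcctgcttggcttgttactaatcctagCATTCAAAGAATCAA
AFAP1 (chr4:7783340-7783397, minus strand): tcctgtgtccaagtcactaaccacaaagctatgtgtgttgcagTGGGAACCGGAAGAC

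In AGRN, ACTAAC started 132 and 112 nt before the exon, in UBA1 64 nt, and in CYFIP1 46 nt before it. The motif began 8 nt before the exon in both CLIP1 and TPM1, so that it ran directly into the AG of the splice site. SEC16A carried it at +23 and +96 of the intron, counted from the first intron base, and DOCK6 at +78. No ACTAAC lay in the tallest 5′ peaks, those of ARGLU1 and PFKP. In BIN1, a membrane‐bending BAR domain protein, the motif was in the exon itself. The peak there covered the whole of an exon of 93 nt, shown with the end of the upstream intron.
BIN1 (chr2:127825739-127825846, minus strand): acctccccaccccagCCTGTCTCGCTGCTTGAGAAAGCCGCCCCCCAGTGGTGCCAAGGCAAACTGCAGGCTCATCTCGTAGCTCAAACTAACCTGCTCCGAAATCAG

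The authors gave each peak a height, a whole‐number signal of the pooled immunoprecipitation libraries. The 5′ splice‐site peaks ranged in height from 7 to 235, with a median of 26 and the middle part of the values between the quartiles of 19 and 44. The 3′ splice‐site peaks ranged from 9 to 433, with a median of 30 and quartiles of 20 and 50. The median of the whole list was 23. A height at or above that median was held by 142 of 231 5′ peaks (61.5%, 95% Wilson interval 55.1 to 67.5%) and 121 of 181 3′ peaks (66.9%, 59.7 to 73.3%), a difference that did not pass Fisher's exact test (odds ratio 0.793, adjusted p = 0.332 over 11 tests). Such intervals cover counting error only, and peaks are not replicates. The 26 peaks with both kinds of site count in both classes here. Without them the odds ratio was 0.800 (adjusted p = 0.360, Fisher's exact test). Members were wide, with median widths of 81 nt at 5′ sites and 83 nt at 3′ sites against 61 nt in the list, and the rule itself favours wide peaks because a peak must span the boundary. A further 41 peaks held a splice site only 1 to 4 nt from an end and were not members. Their median height was 23, against 26 for the members.

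The tallest 5′ splice‐site peak had a height of 235 and lay at the end of exon 2 of ARGLU1, which encodes an arginine‐ and glutamate‐rich coactivator with a role in splicing (chr13:107211635-107211840). It reached 145 nt into the intron, with its summit at +64. Exon numbers are those of the transcript to which a site was assigned. PFKP, the platelet isoform of phosphofructokinase, followed with 224 at the end of exon 16. A height of 208 was reached in TPM1, which encodes an α‐tropomyosin of actin filaments. RPS24, a protein of the small ribosomal subunit, had 179 over a microexon of 22 nt. Tall 5′ peaks with ACTAAC included those of VPS29 (168), a retromer subunit, SEC16A (132), which organises endoplasmic reticulum exit sites, BIN1 (104) and DOCK6 (101), an exchange factor for Rac and Cdc42. In VPS29 the motif was in the exon, 55 nt before its end.

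The tallest member of all was a 3′ splice‐site peak of AGRN, which encodes the basement membrane proteoglycan agrin (chr1:982541-982758). It had a height of 433 and extended 166 nt into an intron of 369 nt, with its summit 97 nt before exon 20. UBA1, the main ubiquitin‐activating enzyme, had a height of 316 at the 3′ site of exon 2, and CYFIP1, a subunit of the WAVE complex, 278 at that of exon 15. PFKP had 194 at the 3′ site of exon 17. ACTAAC lay in the peaks of AGRN, UBA1 and CYFIP1, then of ATAT1 (152), the α‐tubulin acetyltransferase, and CLIP1 (116), which tracks growing microtubule ends. Read positions in repeated gene copies are less certain, and this bears on the 5′ peaks of NBPF20 (170) and NBPF12 (43) and on those of NOTCH2NLB and NOTCH2NLC.

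The listed summits of the 2 kinds of peak mostly lay on different sides of the boundary. With summits moved back by the offset built into the calling, the difference was smaller and did not pass its test. At 5′ splice sites the summit was on the intron side of the site in 150 of 231 peaks (64.9%, 58.6 to 70.8%), and its median position was +15. At 3′ splice sites it was on the intron side in only 58 of 181 (32.0%, 25.7 to 39.2%), and its median position was +13. Sides were set by the splice site alone, whatever the length of the exon. A summit past the far end of a short exon therefore counts as exon side, as at +173 for a 57‐nt exon of MICAL3. Leaving out peaks with both kinds of site, the shares were 141 of 205 and 53 of 155, which differed in Fisher's exact test (odds ratio 4.20, adjusted p = 1.49e-10). With the centre of the peak in place of its summit the odds ratio was 2.80. The authors' calling counted each read start over 50 nt, from 15 nt before to 35 nt after it, which places the middle of the counted stretch 10 nt downstream of the read start. That offset moves summits towards the intron at 5′ sites and towards the exon at 3′ sites. With summits moved back upstream by 10 nt, an alternative added after the data had been seen, 122 of 205 (59.5%) and 81 of 155 (52.3%) lay on the intron side. This smaller difference did not pass (odds ratio 1.34, adjusted p = 0.242, Fisher's exact test). How much of the listed difference comes from the offset was not tested. Nearly all splice sites under peaks had the usual intron ends, GT in 226 of 231 (97.8%) and AG in 179 of 181 (98.9%). So did the other sites of the same genes, with GT in 4063 of 4137 (98.2%) and AG in 3093 of 3100 (99.8%).

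**Figure D1:**
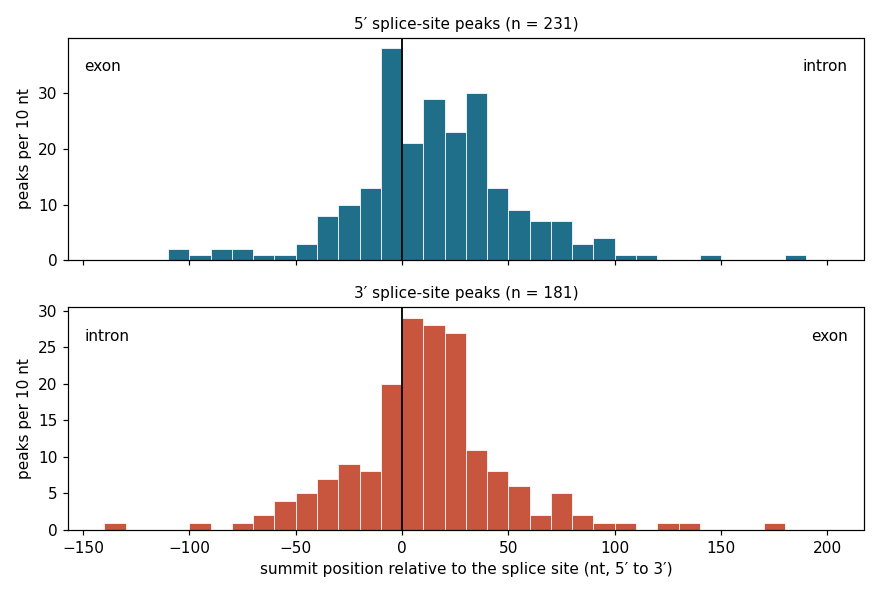
Histograms of the summit position relative to the splice site, in nt along the transcript and in bins of 10 nt, for 231 5′ splice‐site peaks (upper) and 181 3′ splice‐site peaks (lower). The vertical line marks the boundary. Summits gather close to it, with medians at +15 and +13.

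How far a peak reaches also depends on how it was called. Because of the same stretch of 50 nt, read starts in the exon alone could carry a peak up to 35 nt into the intron at a 5′ site and up to 15 nt into it at a 3′ site, also for reads of spliced RNA. Peaks reached past these limits at 140 of 231 5′ sites (60.6%, 54.2 to 66.7%) and 132 of 181 3′ sites (72.9%, 66.0 to 78.9%). Those peaks needed read starts outside the exon to which the site was assigned. Where the site is exonic in another basic transcript, such starts can lie in exonic RNA. Examples are the 3′ peaks of CYFIP1, ATAT1 and CTNND1 and the tall 5′ peaks of TPM1 and PRRT2. In the other 91 and 49 peaks, intronic and exonic read starts cannot be told apart. DOCK6 reached furthest into an intron at a 5′ site, with 245 of its 267 nt there. Peaks past the limit held ACTAAC in 20 of 140 cases at 5′ sites (14.3%), against 4 of 91 within it (4.40%; odds ratio 3.31, adjusted p = 0.0395 in Fisher's exact test, over 5 tests that were chosen after values had been seen). At 3′ sites the shares were 26 of 132 (19.7%) and 3 of 49 (6.12%; odds ratio 3.31, adjusted p = 0.0633, Fisher's exact test). Peaks that reach further also contain more sequence, and that part was not tested.

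**Figure D2:**
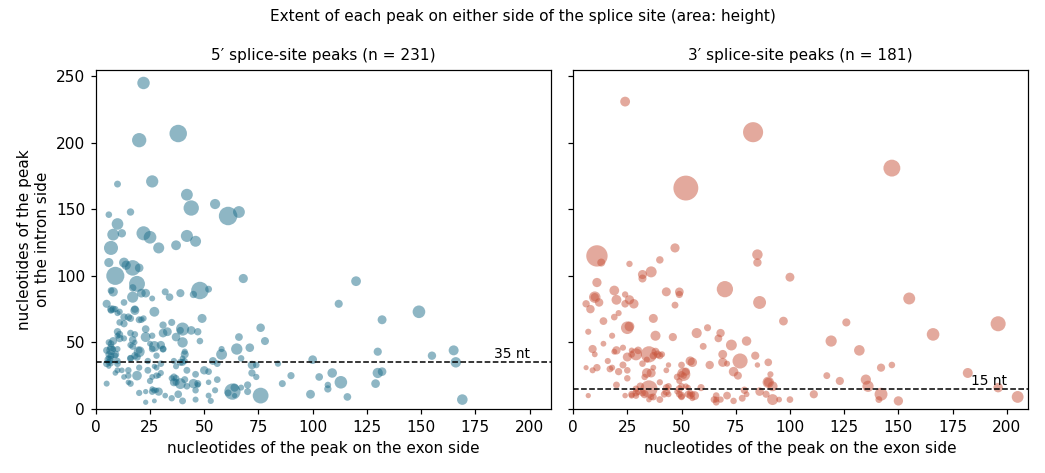
Each point is a peak, with its nucleotides on the exon side (horizontal) and on the intron side (vertical) of the splice site, for 231 5′ and 181 3′ splice‐site peaks. Area grows with height, and the dashed lines mark the 35 and 15 nt that read starts in the exon alone could reach. Points above the lines number 140 and 132.

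ACTAAC was far more common around splice sites under a peak than around the other splice sites of the same genes. Within 100 nt on either side, 43 of 231 5′ sites under a peak carried it (18.6%, 14.1 to 24.1%), against 59 of 4137 other 5′ sites (1.43%, 1.11 to 1.84%). Fisher's exact test gave an odds ratio of 15.8 and an adjusted p of 4.61e-29. At 3′ sites the counts were 41 of 181 (22.7%, 17.2 to 29.3%) and 50 of 3100 (1.61%, 1.23 to 2.12%), with an odds ratio of 17.8 and an adjusted p of 6.74e-29. Over all annotated sites of coding genes the motif lay this close to 1.72% of 5′ and 2.17% of 3′ sites. The search read the gene's strand only. A window of 200 nt lowered the odds ratio at 5′ sites to 6.79, and adding ACTAAT as a motif lowered that at 3′ sites to 7.99. Both remained past the threshold.

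The motif had its own place at each kind of site. Downstream of 5′ splice sites it started between +51 and +100 at 24 of 231 sites under a peak (10.4%), against 21 of 4137 others (0.508%), and between +1 and +50 at 14 (6.06%) against 18 (0.435%). Upstream of 3′ splice sites it started between −60 and −15, the stretch in which branch points usually lie, at 23 of 181 sites under a peak (12.7%) and 21 of 3100 others (0.677%). In the last 14 nt before the exon it started at 4 sites under a peak, CLIP1 and TPM1 among them, and at 1 other site. The 100 nt on the exon side held it less often, at 8 of 231 5′ sites (3.46%) and 10 of 181 3′ sites (5.52%), against 0.556% and 0.548% of the others. This stretch runs past the far end of short exons, as in DCLK2 with its motif at +20 and an exon of 13 nt. These windows are parts of the one tested above and carry no test of their own. More than 100 nt into the intron, NBPF20 and NBPF12, genes built of repeated units, held 38 and 22 of the 101 other 5′ sites with the motif there.

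**Figure D3:**
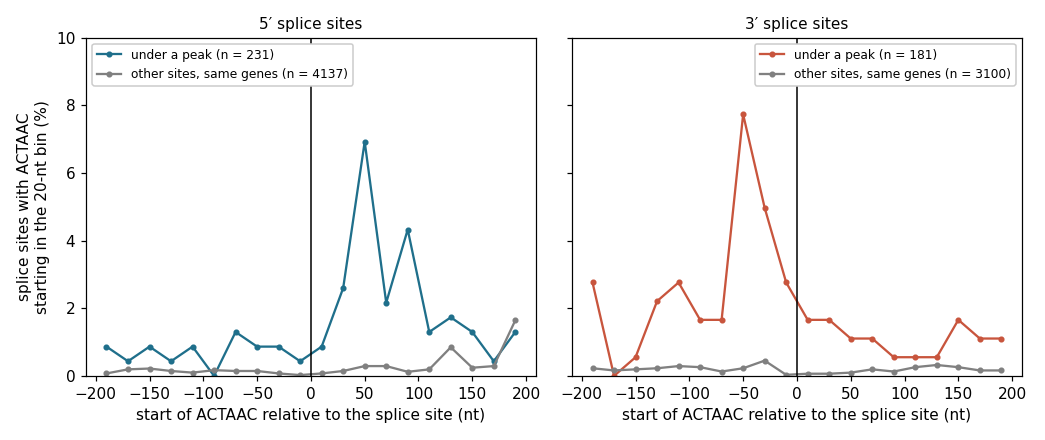
Percentage of splice sites with ACTAAC starting in each bin of 20 nt, by distance from the splice site in nt, for sites under a peak (coloured; 231 at 5′, 181 at 3′) and other sites of the same genes (grey; 4137 and 3100). The coloured lines are highest on the intron side, downstream of 5′ and upstream of 3′ sites.

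Inside the peak itself the motif was found in 24 of 231 5′ members (10.4%, 7.08 to 15.0%) and 29 of 181 3′ members (16.0%, 11.4 to 22.1%). This difference did not pass Fisher's exact test (odds ratio 0.610, adjusted p = 0.126), but did when ACTAAT was counted as well (0.536, adjusted p = 0.0330). Both versions count the 26 peaks with both kinds of site in both classes. Without those peaks the odds ratio for ACTAAC was 0.573 (adjusted p = 0.106, Fisher's exact test). Of the peaks with ACTAAC, 20 of 24 at 5′ sites and 22 of 29 at 3′ sites had it on the intron side of that site only. Here too, sides were set by the splice site, whatever the length of the exon. Of the 33 motif starts in 3′ peaks 16 lay between −60 and −15, and of the 26 in 5′ peaks 20 lay between +20 and +100. Taken as a group, 51 of 386 members held ACTAAC (13.2%, 10.2 to 17.0%). Intronic peaks within 250 nt of an exon that did not touch it held it in 244 of 1920 cases (12.7%; odds ratio 1.05, adjusted p = 0.802, Fisher's exact test), but joining peaks up to 10 nt apart, which was tried only after the data had been seen, raised the odds ratio to 1.55 (adjusted p = 0.00406). Peaks that lay wholly in coding exons held it in 15 of 346 (4.34%; odds ratio 3.28, adjusted p = 3.56e-05, Fisher's exact test). The groups differ in median width, which was 65 nt for the intronic and 57 nt for the coding peaks. Per kilobase of peak there were 1.59 ACTAACs in the members, 1.96 in the nearby intronic peaks, 0.794 in the coding peaks and 1.63 in the whole list.

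Exons whose boundary lay under a peak were often exons that other annotated transcripts leave out. An internal exon was called skipped when a basic coding transcript joins an upstream exon to a downstream one across it. Among internal exons with a peak over the 5′ site, 97 of 178 were skipped in this sense (54.5%, 47.2 to 61.6%), against 547 of 3792 at the other 5′ sites of the same genes (14.4%, 13.3 to 15.6%). The odds ratio was 7.09, with an adjusted p of 5.24e-33 in Fisher's exact test, and 10.96 when only CCDS transcripts were used. With a peak over the 3′ site, 109 of 142 were skipped (76.8%, 69.2 to 82.9%), against 416 of 2896 (14.4%, 13.1 to 15.7%; odds ratio 19.5, adjusted p = 2.45e-57, Fisher's exact test). The share was higher at 3′ than at 5′ sites under a peak (odds ratio 2.73, adjusted p = 0.000186 in Fisher's exact test, over the 5 tests chosen after values had been seen). Exons with both ends under a peak enter both of these groups. The test takes groups as disjoint, so its p does not hold exactly here. The shares past and within the read‐extension limit were close, and neither difference passed. At 5′ sites 55 of 104 peaks past the limit and 42 of 74 within it met skipped exons (52.9% and 56.8%, adjusted p = 0.649, Fisher's exact test), and at 3′ sites 82 of 105 and 27 of 37 did (78.1% and 73.0%, adjusted p = 0.634). Skipping in the annotation is not skipping measured in mesHMLE cells.

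Peaks at or above the list's median height met skipped exons in 66 of 108 cases at 5′ sites (61.1%, 51.7 to 69.8%) and 77 of 93 at 3′ sites (82.8%, 73.9 to 89.1%). Lower peaks did so in 31 of 70 (44.3%, 33.2 to 55.9%) and 32 of 49 (65.3%, 51.3 to 77.1%). With ACTAAC within 100 nt the shares were 26 of 39 at 5′ sites and 27 of 36 at 3′ sites, and without it 71 of 139 and 82 of 106. Skipped coding exons with a length divisible by 3, which leave the reading frame intact when skipped, numbered 55 of 78 at 5′ sites under a peak (70.5%, 59.6 to 79.5%) against 258 of 465 at the other sites (55.5%, 50.9 to 59.9%). At 3′ sites they numbered 73 of 98 (74.5%, 65.0 to 82.1%) against 231 of 343 (67.3%, 62.2 to 72.1%). Exons of at most 30 nt made up 16 of 178 at 5′ sites (8.99%, against 1.69% of the others) and 12 of 142 at 3′ sites (8.45%, against 2.21%), but a peak in so short an exon can hardly avoid its ends. None of these splits was tested.

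Splice sites under a peak also had further peaks close by. Another peak that touched no exon lay in the next 250 nt of intron at 101 of 231 5′ sites (43.7%, 37.5 to 50.2%), against 103 of 4137 others (2.49%, 2.06 to 3.01%; odds ratio 30.3, adjusted p = 1.22e-80, Fisher's exact test). At 3′ sites the counts were 74 of 181 (40.9%, 34.0 to 48.2%) and 82 of 3100 (2.65%, 2.14 to 3.27%; odds ratio 25.4, adjusted p = 4.81e-56, Fisher's exact test). The caller splits broad regions into several listed peaks, and 51.1% of 5′ and 55.8% of 3′ members had another listed peak within 10 nt. With such peaks joined, the odds ratios fell to 10.2 and 10.1 and both still passed.

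**Figure D4:**
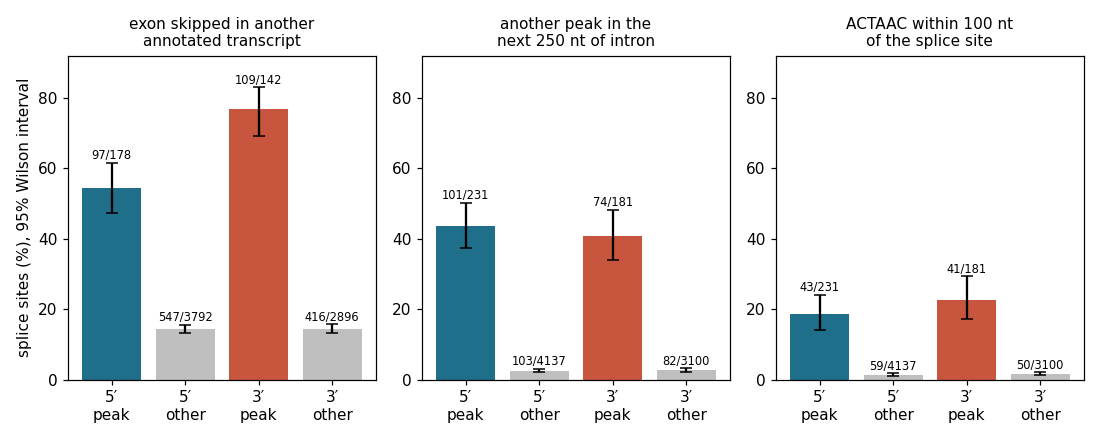
Percentage of splice sites with a skipped exon, with another peak in the next 250 nt of intron and with ACTAAC within 100 nt, for sites under a peak (coloured) and other sites of the same genes (grey), with counts above the bars. Error bars are 95% Wilson intervals. In all 3 panels the sites under a peak lie above the others, for example 76.8% against 14.4% for skipped exons at 3′ sites.

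Most members lay at coding exons, with 180 of 231 at 5′ sites (77.9%) and 159 of 181 at 3′ sites (87.8%). Exons of the 5′UTR accounted for 37 (16.0%) and 13 (7.18%), and those of the 3′UTR for 14 (6.06%) and 9 (4.97%). The splice site was exonic in another basic transcript for 38 of the 5′ members (16.5%) and 28 of the 3′ members (15.5%), so that for these the intron side can also be exon. Neither these shares nor those of coding and UTR exons are given for the other splice sites. They describe the members only. In the letters of the splice site itself the bound sites were close to the others. G at the fifth intron base was present at 171 of 231 5′ sites under a peak (74.0%) and 75.8% of the others, and the share of pyrimidines from 20 to 5 nt before the exon had a median of 75% in both groups at 3′ sites. Small RNA genes overlapped 0 of 231 and 0 of 181 members. No share over the other listed peaks is given beside these counts, so they do not set the members apart.

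In 26 exons separate peaks lay over both ends. TPM1 and AFAP1 were among those with the tallest pairs. In TPM1 the peak over the 3′ site had a height of 153 and that over the 5′ site 208, on an exon of 127 nt (chr15:63356263-63356389). In the transcript to which the 3′ site was assigned, this exon is 79 nt long and ends between the 2 peaks. In AFAP1, which encodes an actin filament‐associated adaptor, the heights were 63 and 103 on exon 13 of 252 nt (chr4:7783103-7783354), and ACTAAC lay 28 nt before it. Both of these exons are skipped in another transcript. A further 25 exons lay whole inside 1 peak, from 9 nt in COL4A5 and NAV2 to 138 nt in PHLDB1. NUMB, an inhibitor of Notch signalling, had its exon 6 of 33 nt inside a peak of 199 nt, and DNM2, the ubiquitous dynamin of endocytosis, had a microexon of 12 nt inside a peak of 137 nt. Of the 26 peaks with both kinds of site, 1 held a 23‐nt annotated intron of NOTCH2NLC in place of an exon. Counting annotated introns, 41 had separate listed peaks over both ends, in 25 genes. Alternative introns of a gene that share a peak, as in CYBC1 and KLC1, were each counted. So these are not 41 distinct pairs of peaks. Among them were the 5052‐nt intron of PFKP with 224 and 194 and the 369‐nt intron of AGRN with 136 and 433. In AGRN the 2 peaks lie 1 nt apart.

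The members lay in 285 genes, 197 with a 5′ and 153 with a 3′ splice‐site peak, and 208 of the genes had 1 bound site. Most bound sites were in MICAL3, a monooxygenase of the actin‐oxidising MICAL family, with 9 sites under 7 of its 129 peaks. KLC1, a kinesin light chain, had 8, CYBC1, a chaperone of cytochrome b558, had 7, and TPM1 had 6. DNM2, EPB41L2, AFDN and NAV2 had 4 each. The MICAL3 peaks ranged in height from 18 to 90, and 2 of its exons, of 57 and 108 nt, lay whole inside a peak. In KLC1 the members gathered in exons 13 to 16, near the end of the gene, with heights from 11 to 131. In CYBC1 all 7 sites belonged to 5′UTR exons, with heights from 16 to 68. TPM1 had 3′ splice‐site peaks of 21, 153, 75 and 179 and 5′ splice‐site peaks of 18 and 208. The peaks of 153 and 208 lay over the ends of the 127‐nt form of 1 exon, and the lowest 3′ peak was the one with ACTAAC beside the AG.

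**Figure D5:**
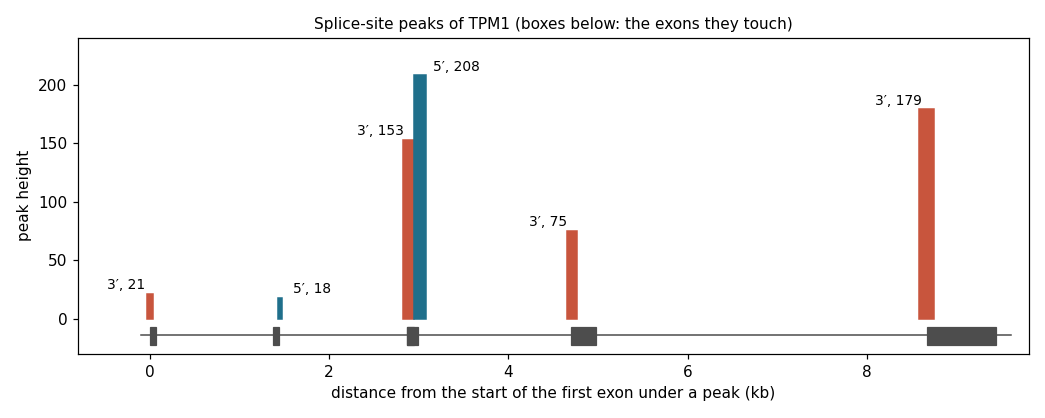
Height of the 6 splice‐site peaks of TPM1 (vertical) by their distance in kb from the first exon under a peak (horizontal), with 3′ splice‐site peaks in red, 5′ in blue and the exons they touch as boxes. The peaks of 153 and 208 lie over the ends of the 127‐nt form of a single exon, and the peak of 179, the second tallest, lies over the 3′ site of a last exon.

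As background for gene lists, 285 of 18706 coding genes with a splice site held a member (1.52%), and 285 of 4525 with any listed peak (6.3%). Of the 11 genes whose exons the study examined by RT–PCR, all had a listed peak and 4 had a member. These events had been picked by the study, so their share is no independent evidence. MYO18A, an unconventional myosin, had a 5′ splice‐site peak of 158 at exon 40 of 45 nt (chr17:27412471-27412665) that reached 151 nt into the intron, and a 3′ peak of 41 at the far end of the same 3165‐nt intron. CD47, the cell surface ligand of SIRPα, had a 3′ peak of 104 at exon 10 of 33 nt (chr3:107768474-107768559), with ACTAAC 34 nt before the exon. NUMB had 47 in both of its peaks, and DEPDC1 had 16 at the 5′ site of its 852‐nt exon 8. ADD3, CLSTN1, CSNK1G3, EXOC1, MARK3, MPRIP and NFYA had 0 members, although MPRIP held 51 listed peaks and MARK3 40. QKI itself had 15 listed peaks and 0 members.

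Among 78 actin filament and myosin genes 14 had a member (17.9%, or 23.7% of those with any peak). Their 36 peaks had a median height of 38.5, against 26 for all members. They included tropomyosin and spectrin genes, with TPM1 at up to 208. SPTAN1, which encodes α‐spectrin, had a 5′ peak of 97 with ACTAAC at +80 beside a skipped exon of 63 nt. MYL6, a myosin light chain, had a skipped exon of 45 nt whole inside a peak of 82, and VCL, which encodes vinculin, had 80 at the 3′ site of a skipped exon of 204 nt with ACTAAC 44 nt before it. PFN1, which encodes profilin, had 31.

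Of the 40 cell junction and polarity genes found in the annotation 5 had a member (12.5%, or 21.7% of those with any peak), with a median height of 40. CTNND1, p120 catenin, which stabilises cadherins at the membrane, had 109 at the 3′ site of a skipped exon of 87 nt, with ACTAAC 25 nt before it. That splice site is exonic in another basic transcript. DLG1, a scaffold of cell polarity, had 3′ peaks of 29, 31 and 57. AFDN, which encodes afadin, had exons of 21 and 45 nt whole inside peaks of 22 and 40. Of 45 integrin, matrix and focal adhesion genes 6 had a member (13.3%, or 23.1% of those with any peak), all of low height, with a median of 15 and a highest value of 26 in ITGA3. PTK2, focal adhesion kinase, had 20, with ACTAAC at +55.

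Splicing factor genes held a member in 10 of 73 cases (13.7%, or 20.4% of those with any peak), with a median height of 29. HNRNPA2B1 had 80 at the 3′ site of its last exon, in the 3′UTR, and HNRNPC had 48 and 29 at 5′UTR exons. MBNL2, itself a regulator of alternative exons, had its skipped exon of 36 nt whole inside a peak of 38, and MBNL1 had 30 at the 3′ site of a skipped exon of 54 nt. Among 75 serine and threonine kinase genes 9 had a member (12%, or 15.3% of those with any peak), with a median of 27.5. The tallest were CSNK1A1, casein kinase 1α, with 71 at a 5′ site, and MINK1, a kinase of the STE20 group, with 51 at the 3′ site of a skipped exon of 24 nt. All lists exceeded the background share, which for genes with any peak also depends on their numbers of exons and peaks, whose part was not tested. The lists were drawn up with earlier results of these data known, so their shares are no independent evidence.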

How the data were processed

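Reads of 7 QKI‐5 immunoprecipitation and 2 size‐matched input libraries of mesHMLE cells were processed by the authors. They trimmed with cutadapt 1.3, mapped to hg19 with TopHat2 2.0.10, collapsed duplicates by molecular barcode, discarded mapping qualities under 10, pooled the libraries and called peaks per strand with MACS2 2.1.1.20160309 (q value 0.05, fold cutoff 3). Each deposited height is a whole‐number signal that the authors took over the pooled libraries. It is not a read count of any library and was compared only between peaks of the list. Printed positions start from 1 on hg19.

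Splice sites came from GENCODE release 44 placed on that build, and sequence from GRCh37. The 18 mitochondrial peaks were left out. Introns of at least 20 nt were used, and a boundary shared by transcripts counted once. Other sites were those of the same genes under no member. Differences in shares were tested by two‐sided Fisher's exact tests, adjusted over 11 tests by Benjamini–Hochberg (threshold 0.05), with 0.5 added to the cells for odds ratios. The members, lists and tests were chosen with earlier results of these data known. Named genes were those of the RT–PCR events, QKI, the 5 tallest peaks of each class with and without regard to ACTAAC, the 5 genes with most bound sites (the fifth, DNM2, ties with EPB41L2, AFDN and NAV2), the 3 leading exons with peaks over both ends and the 2 tallest of each list. Other genes of the lists and of short exons were named after their values were seen. Sequences were limited to coding exons, and some items that these rules name are not reported here. Alternatives were other margins, transcripts, heights, motifs, windows, strata by gene, splice sites and joined peaks. Scripts were tested on simulated data. Python 3.11.15, scipy 1.17.1, statsmodels 0.14.6, pysam 0.24.0, matplotlib 3.10.9 and samtools 1.23.1 were used.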

Additional observations from a re-analysis of the deposited data

How the results depend on the processing

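Of 100 recomputed values, 94 kept their direction and their side of the threshold. The counts of members have neither, and were taken as kept when they stayed near the main count. Keeping only peaks at or above the median height left 142 5′ splice‐site peaks in place of 231, and the comparison of heights then gave an odds ratio of 1.17 in place of 0.793, which is empty by construction because every remaining peak is at or above the median (adjusted p = 1, Fisher's exact test). Counting ACTAAT beside ACTAAC brought the difference between 5′ and 3′ members past the threshold (odds ratio 0.536, adjusted p = 0.0330, Fisher's exact test) and turned that between members and nearby intronic peaks to 0.903 (adjusted p = 0.505). Joining peaks up to 10 nt apart, an alternative chosen after seeing the data, left 18993 of 24019 nuclear peaks and gave 1.55 for the latter (adjusted p = 0.00406, Fisher's exact test), where joined peaks are wider. The cause was not tested. Moving summits upstream by 10 nt, the offset built into the calling and also an addition made with the data in view, left the summit comparison short of the threshold (odds ratio 1.34, adjusted p = 0.242, Fisher's exact test). Stratifying by gene, CCDS transcripts, other margins and only GT and AG sites changed no call of the comparisons they were run on. Merging overlapping peaks left the list at 24019 peaks, since no listed peaks overlap on a strand, and leaving out peaks with both kinds of site is already part of the summit comparison. No paired analysis was possible because the libraries were pooled into 1 list, which also means that no replicate could be left out. Depth per library is unknown, so a splice site without a listed peak cannot be called unbound.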

Other observations

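Splice sites of transcripts that are not protein coding lay, with at least 5 nt on each side, in another 50 listed peaks. These peaks held no coding splice site by the same rule and entered no comparison.

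First and last exons, for which skipping was not defined, accounted for 53 of the 5′ splice‐site peaks and 39 of the 3′ splice‐site peaks. Internal exons thus made up 178 of 231 5′ and 142 of 181 3′ sites under a peak. At the other sites of the same genes they made up 3792 of 4137 and 2896 of 3100. This difference was not tested. Peaks at first and last exons included those over the first exons of CYBC1 and HNRNPC and over the last exons of DLG1, HNRNPA2B1 and SFPQ. SFPQ, a DNA‐ and RNA‐binding protein of the DBHS family, had a 3′ splice‐site peak of height 48.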
